A study of Bos taurus with 57 samples.

Results

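Expression in the testes was compared gene by gene with that in the anterior pituitary of young Holstein Friesian bulls, using every library that the sample labels assign to either tissue. There were 18 testes libraries and 19 anterior pituitary libraries, 37 of the 57 in the series; the other 20 came from the arcuate nucleus and were used here only where stated. From early life the calves had been fed at either of 2 levels, a high and a low plane of nutrition with labelled growth rates of 1.08 and 0.5 kg per day, and they were killed at 126 days of age. The high plane gave 10 testes and 9 pituitary libraries and the low plane 8 and 10, all from males without any other labelled treatment. Each library was prepared from bulk tissue as single-end mRNA and summarised as the number of reads on each of 24616 Ensembl genes. In bulk tissue, fewer cells of a type and less RNA per cell cannot be told apart. The same animals gave both tissues, but the labels do not tie a library to a calf, so libraries were compared without a term for the animal.

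The anterior pituitary is an endocrine gland in which a small number of cell types each make and store large amounts of a peptide or glycoprotein hormone, among them growth hormone, prolactin and the gonadotrophins LH and FSH. LH acts on the Leydig cells of the testes, which make testosterone, and FSH on the Sertoli cells, which nurse the developing germ cells. Adult testes are known for transcribing a wide range of genes, many of them in germ cells, whereas these calves were 126 days old. None of the 24616 identifiers was paired with a gene name in the tables at hand, so the labels were not checked here against hormone, germ cell or Leydig cell genes, and genes are described by level, tissue and identifier. Only 2 identifiers are given for each tissue, those of the most abundant genes at least 2-fold higher in it.

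The libraries held similar numbers of reads, from 8586953 to 26067610 in the testes (median 16869090.5) and from 6895844 to 27426173 in the pituitary (median 16191735). Libraries of each tissue fell into 2 sets by a library score, the mean log2 CPM (counts relative to the size of a library) of 200 genes picked in the arcuate nucleus libraries. The score was at most 0.991 in 11 libraries and at least 3.24 in the other 26. The low set held 6 testes libraries, 1 from the high and 5 from the low plane, and 5 pituitary libraries, 3 from the high and 2 from the low plane. What the score reflects was not tested, and the counts of genes, the shares and the measures of breadth are given with and without these 11 libraries. Leaving them out was not planned and was a choice made after seeing the data. The testes library labelled A48 carries the letter of the pituitary libraries, whereas the header of its counts reads B48. Its counts had a median rank correlation across genes of 0.983 with the other testes libraries and 0.891 with the pituitary libraries. Pituitary library A47, which is in the low set, had a median correlation of 0.911 with the other pituitary libraries and 0.848 with the testes libraries.

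More genes differed between the tissues than did not, and neither side held a large majority of them. Of 15146 genes with enough reads to test, 9653 (63.7%) differed at a false discovery rate (FDR) below 0.05 in edgeR's quasi-likelihood test with diet as a covariate. Of these, 5036 genes (33.2%) were higher in the testes and 4617 (30.5%) were higher in the pituitary. A difference of at least 2-fold was found for 2964 genes (19.6%) higher in the testes and 2640 genes (17.4%) higher in the pituitary. The median absolute difference over all tested genes was 0.70 on the log2 scale, with a median standard error of 0.20, and 3322 genes (21.9%) differed by less than 0.25. The mean levels of the 2 tissues, as log2(CPM + 1), correlated across genes with r = 0.768, which is a description, since genes are not independent replicates.

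The balance of the split depended on scaling and on the filter for low counts. TMM scaling, which sets the bulk of genes to no difference, put the median log2 difference at 0.01. With library totals alone the median was 0.30, and the split became 6703 genes higher in the testes against 3414 higher in the pituitary. TMMwsp and upper quartile scaling turned the order, with 4667 against 4979 and 4719 against 4950 genes. RLE scaling kept it, with 4884 against 4770, as did DESeq2 (5010 against 4932) and limma with voom (6150 against 6002). For genes at least 2-fold higher the testes still had more with TMMwsp (2820 against 2801) and the upper quartile (2831 against 2792). They had fewer such genes when 1 CPM was asked of every library (1262 against 1346). Without a filter on low counts there were 7505 genes higher in the testes and 5434 in the pituitary, and with 1 CPM asked of every library 3115 and 3367. Which tissue had more genes on its side was therefore not settled. Without the 11 libraries of low score, 6387 genes were higher in the testes and 6158 in the pituitary, of which 3126 and 2774 reached 2-fold. Of the 5604 genes that differed at least 2-fold in all libraries, 5335 did so again without those 11, all in the same direction. The libraries of the tissues did not overlap at all for 1511 genes (9.98%) with every testes library above every pituitary library, and for 1066 genes (7.04%) with the reverse order. Without the libraries of low score these counts were 3364 and 3211 of the same 15146 genes. Fewer libraries have to lie apart there, so these counts could not fall.

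**Figure D1:**
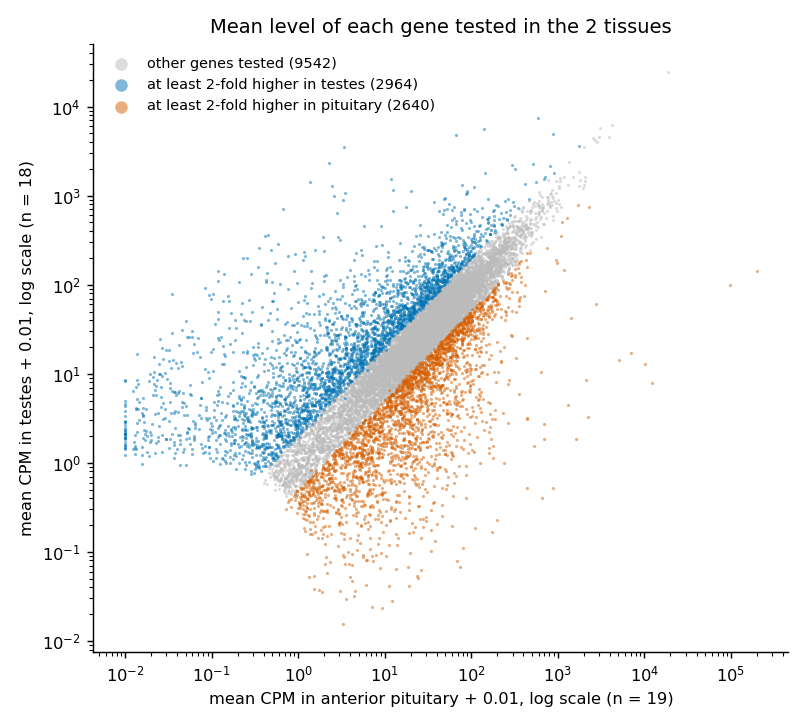
Mean TMM-scaled CPM of each of 15146 tested genes in the anterior pituitary (x axis, n = 19 libraries) and the testes (y axis, n = 18 libraries), with 0.01 added and both axes on log scales. The 2964 genes at least 2-fold higher in the testes and the 2640 at least 2-fold higher in the pituitary spread away from the diagonal at every level, and 2 pituitary genes stand far to the right of all others.

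The genes on the 2 sides were expressed at similar levels, but those of the testes reached high levels and large differences more often. Among genes at least 2-fold higher in the testes, the median level in the testes was 18.7 CPM, with quartiles of 4.86 and 70.6. For the pituitary side the median level in the pituitary was 19.97 CPM, with quartiles of 6.63 and 53.1. A level of 100 to 1000 CPM was reached by 522 genes (17.6%) on the testes side and 288 genes (10.9%) on the pituitary side, and 1000 CPM by 29 and 18 genes. Between 10 and 100 CPM the order was turned, with 1290 genes on the testes side and 1453 genes on the pituitary side. These shares describe genes chosen by their difference and were not tested.

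Most differences on either side were moderate. A difference of 2- to 4-fold accounted for 1452 genes of the testes side and 1378 genes of the pituitary side, and the median sizes were 2.04 and 1.92 on the log2 scale. At the far end, 267 genes were at least 64-fold higher in the testes and 109 genes at least 64-fold higher in the pituitary. At 256-fold the fitted counts were 117 and 34 genes. The testes side included 31 genes without a read in any pituitary library, whose fitted size depends on the model. With these genes placed at the lower bound that a limit of 3 reads over all pituitary libraries allows, 267 genes still reached 64-fold, 104 reached 256-fold and the median stayed at 2.04. No gene on the pituitary side lacked reads in all testes libraries.

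Although the gene numbers were close, the 2 sides held very different shares of the reads. The 2640 genes of the pituitary side took 41.7% ± 6.18 (SD, n = 19) of pituitary reads, from 23.6% to 48.9%, and 3.65% ± 0.167 (SD, n = 18) of testes reads. The 2964 genes of the testes side took 27.7% ± 2.71 (SD, n = 18) of testes reads, from 22.8% to 30.8%, and 5.04% ± 0.543 (SD, n = 19) of pituitary reads. The lowest pituitary value belonged to library A47, and the next was 32.5%. Without the libraries of low score, the pituitary side held 44.2% ± 3.62 (SD, n = 14) of pituitary reads and the testes side 29.4% ± 1.21 (SD, n = 12) of testes reads. Without its 2 leading genes, over all libraries, the pituitary side held 15.5% ± 1.72 (SD, n = 19) of pituitary reads. The testes side without its own leading pair held 26.2% ± 2.70 (SD, n = 18) of testes reads. Both are shares of all reads, including those of the leading genes. The pituitary pair held a median of 27.1% of pituitary reads, and the testes genes medians of 0.838% and 0.595% of testes reads. As shares of the remaining reads the contrast would be smaller.

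The pituitary was dominated by a single pair of genes. ENSBTAG00000015274 held from 3.14% to 26.4% of the reads of a pituitary library, with a median of 18.2%, and was the most counted gene in 16 of the 19 libraries. Its scaled level was 27832 CPM in the lowest pituitary library, 212830 in the median and 322010 in the highest, against 0, 89.7 and 672 CPM in the testes libraries. Every pituitary library lay above every testes library. The difference was -10.45 ± 1.05 (log2, SE, testes minus pituitary; edgeR FDR = 3.37e-11).

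ENSBTAG00000017220 led the other 3 pituitary libraries. Its level was 4222, 113800 and 194300 CPM in the lowest, median and highest pituitary library and 0, 62.0 and 426 CPM in the testes, again without overlap. Testes were lower by a log2 difference of -9.88 ± 1.20 (SE, edgeR FDR = 3.26e-09). Within the pituitary this gene followed the library score. It held a median of 0.767% of the reads in the 5 libraries of low score and 11.3% in the other 14, whereas ENSBTAG00000015274 held 23.6% and 17.9%. The ratio of the first gene to the second was between 0.66 and 2.79 in the 14 libraries and between 2.15 and 69.8 in the 5. Together the pair held a median of 27.1% of the reads of a pituitary library, with A47 lowest at 4.60% and the highest at 35.7%.

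The leading genes of the testes side were far less abundant. ENSBTAG00000014835 was at 4192, 7668 and 9190 CPM in the lowest, median and highest testes library and at 331, 529 and 877 CPM in the pituitary. No testes library fell within the pituitary range, and the log2 difference was 3.66 ± 0.13 (SE, edgeR FDR = 7.43e-24). ENSBTAG00000021189 was at 3377, 5150 and 8337 CPM in the testes and at 56.8, 121 and 315 CPM in the pituitary, a log2 difference of 5.33 ± 0.21 (SE, edgeR FDR = 2.75e-23). Both genes were present in every pituitary library, at no fewer than 2418 and 592 reads. By mean level in the testes they ranked 2 and 5. A gene that was at least 2-fold higher in neither tissue ranked 1 there and led all 18 testes libraries, with 1.73% to 4.09% of their reads. It held 1.20% to 3.05% of pituitary reads, and its log2 difference was 0.42 ± 0.17 (SE, edgeR FDR = 0.0271).

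**Figure D2:**
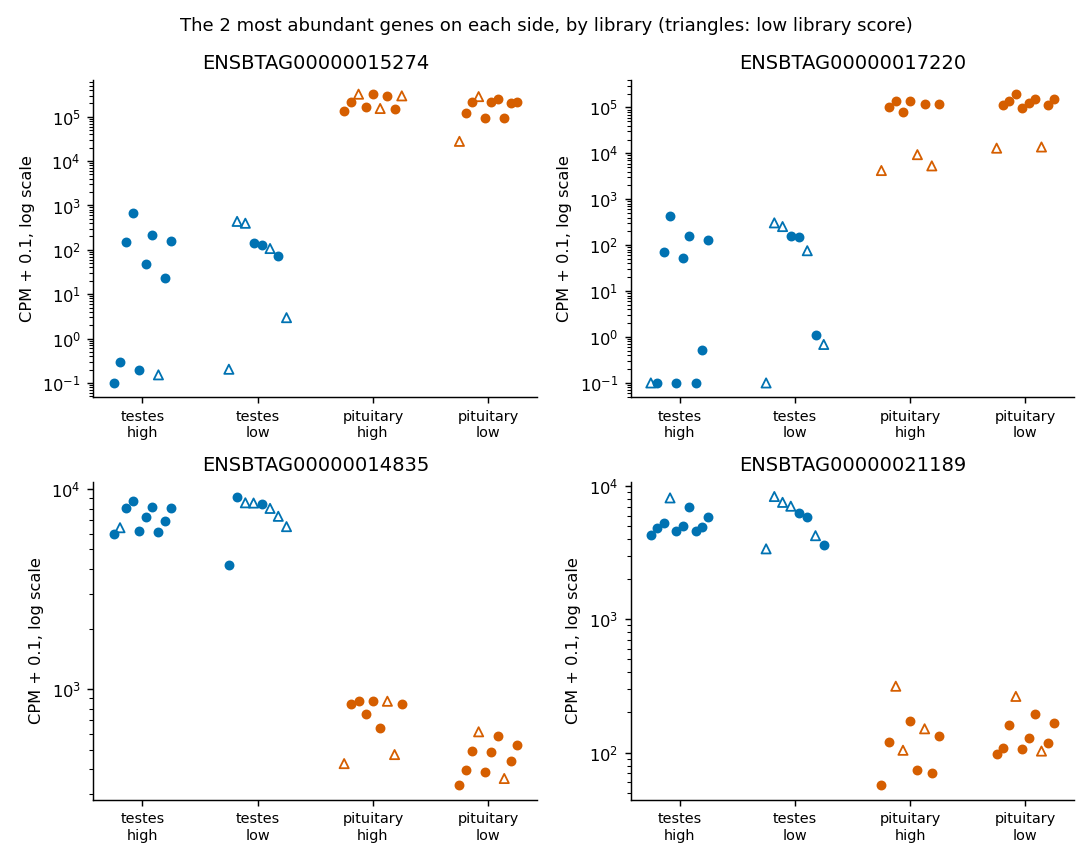
TMM-scaled CPM, with 0.1 added on a log axis, of the 2 most abundant genes at least 2-fold higher in the pituitary (top) and in the testes (bottom), with 1 point for each library by tissue and plane of nutrition and triangles for libraries of low score. The testes values of the pituitary pair run from 0 to 672 CPM, whereas the testes genes lie at 56.8 CPM or more in every pituitary library.

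The most counted genes of the tissues were partly the same. Of the 10 genes with the largest mean level in each tissue, 4 were shared, which is 40% of each list, and of the 100 largest, 55 were shared. Without the libraries of low score 2 and 52 were shared. Of the 100 in the testes, 42 were at least 2-fold higher in the testes and 1 at least 2-fold higher in the pituitary. Of the 100 in the pituitary, 27 were at least 2-fold higher in the pituitary and 6 at least 2-fold higher in the testes. Over all tested genes these shares were 19.6% for the testes and 17.4% for the pituitary. Each list was picked by level in the tissue whose side is counted, which favours that side, so the counts are a description.

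A larger share of reads went to few genes in the pituitary than in the testes. The most counted gene of a library held 17.8% ± 5.96 (SD, n = 19) of pituitary reads, with a lowest value of 3.14%, a median of 18.2% and a highest value of 26.4%. In the testes it held 2.69% ± 0.714 (SD, n = 18), from 1.73% through 2.57% to 4.09%. Only pituitary library A47 reached into the testes range. The 10 most counted genes held 32.3% ± 6.01 of pituitary reads, from 14.8% in A47 to 39.7%, and 8.35% ± 1.32 of testes reads, from 6.71% to 11.4%, without overlap. For the 100 most counted genes the shares were 41.8% ± 5.003 and 22.1% ± 1.84, also without overlap. Adjusted for diet, the differences, testes minus pituitary, were -15.3, -24.01 and -19.8 percentage points, and -15.9, -26.5 and -21.8 without the libraries of low score. Each difference had an adjusted p = 1e-05 in a two-sided permutation test within diets, the smallest that 100000 resamples can give, over a family of 6 measures of breadth.

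**Figure D3:**
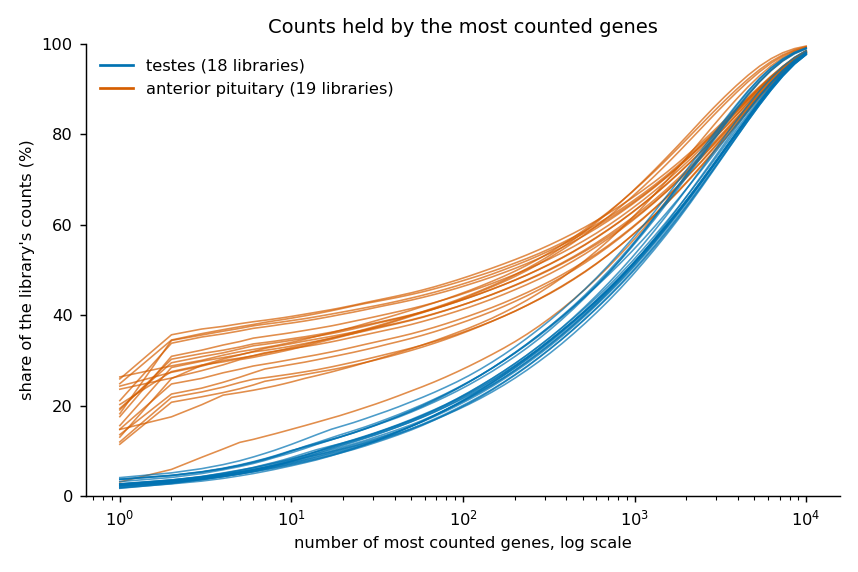
Share of each library's reads (y axis) held by its most counted genes (x axis, number of genes on a log scale), with 1 line for each of 18 testes and 19 pituitary libraries. The pituitary lines start high, at 3.14% to 26.4% for a single gene, and A47 is the 1 pituitary line that starts among those of the testes.

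The pituitary transcriptome was correspondingly narrower. The effective number of genes, the number of equally counted genes that would give the same Shannon entropy, was 3930 ± 501 (SD, n = 18) in the testes and 1036 ± 518 (SD, n = 19) in the pituitary. Testes libraries ran from 2917 to 4495 and pituitary libraries from 546 to 2724, without overlap. It took 871 ± 108 genes (SD, n = 18) to hold 50% of the reads of a testes library and 323 ± 148 genes (SD, n = 19) in the pituitary, and again A47, at 675 genes, was the only pituitary library within the testes range, whose lowest value was 664. The diet-adjusted differences were 2899 effective genes and 550 genes holding 50% of reads, both with an adjusted p = 1e-05 by permutation. Within the high plane the effective number differed by 3112 (10 testes and 9 pituitary libraries, exact permutation p = 2.17e-05), and within the low plane by 2672 (8 and 10 libraries, exact permutation p = 4.57e-05). Without the 11 libraries of low score the differences were 3300 effective genes and 630 genes holding 50% of reads.

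**Figure D4:**
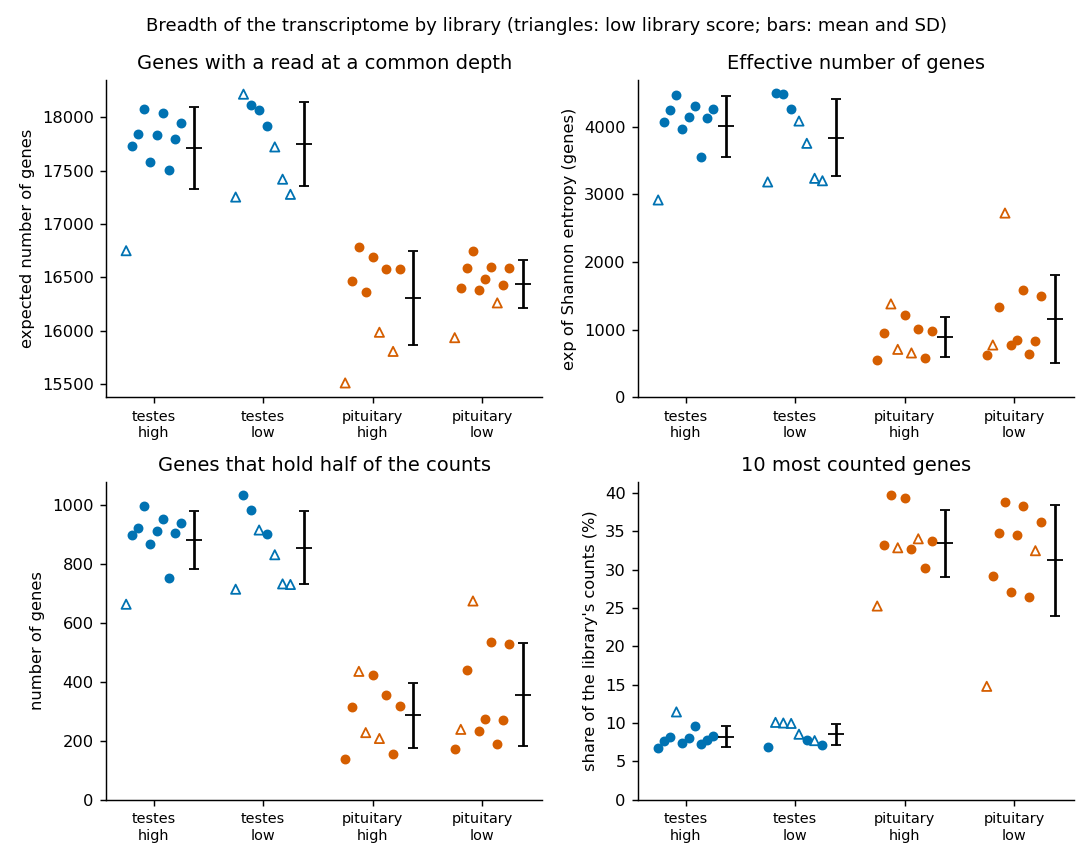
Measures of breadth for each library by tissue and plane of nutrition, as points (triangles for low library score) with the mean and SD beside them, on the y axes as numbers of genes or as a percentage of reads; the first axis does not start at 0. Testes libraries lie above pituitary libraries in effective number (2917 or more against 2724 or less) and below them in the share of the 10 most counted genes (11.4% or less against 14.8% or more).

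These differences in evenness changed when the leading genes were taken away. The leading pair was picked by level in the pituitary and ranked only 1223 and 1982 by mean level in the testes. Taking it away therefore favours evenness in the pituitary, and the tests without it compare the tissues after that choice. Differences in this paragraph are adjusted for diet and need not equal the difference of the means. With the reads of ENSBTAG00000015274 and ENSBTAG00000017220 taken away from all libraries, a choice made after seeing the data, the effective number was 3929 ± 501 (SD, n = 18) in the testes and 4256 ± 763 (SD, n = 19) in the pituitary. The difference of -321, testes minus pituitary, did not pass the permutation test (adjusted p = 0.288), but it pooled unlike sets of libraries. In the 26 libraries of higher score the effective number was 4196 ± 263 (SD, n = 12) in the testes and 4688 ± 194 (SD, n = 14) in the pituitary, a diet-adjusted difference of -444 (unadjusted permutation p = 6e-05). In the 11 of low score it was 3395 ± 433 (SD, n = 6) and 3047 ± 140 (SD, n = 5). The diet-adjusted difference there was 207 (exact permutation p = 0.381, where the smallest possible is 0.0119). The shares of the 1, 10 and 100 most counted remaining genes then differed by 0.314, -0.577 and 0.882 percentage points, with adjusted p of 0.288, 0.296 and 0.288 by permutation. In the libraries of higher score the share of the 100 differed by 1.27 percentage points (unadjusted permutation p = 0.00678), and those of the 1 and the 10 by 0.182 and -0.425 (unadjusted permutation p = 0.407 and 0.311). The number of genes holding 50% of the reads changed sides, with 870 ± 108 in the testes and 1049 ± 194 in the pituitary (difference -177, adjusted p = 0.00744 by permutation). Adjusted for diet, it differed by -230.4 in the libraries of higher score and by -0.787 in those of low score (exact permutation p = 0.988).

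Taking away the 10 most counted genes of each library left the pituitary higher on average, though not in every set of libraries. The effective number was then 5017 ± 436 (SD, n = 18) in the testes and 5502 ± 714 (SD, n = 19) in the pituitary, a diet-adjusted difference of -482 (unadjusted permutation p = 0.0215). The difference was -294 on the high plane (exact permutation p = 0.324) and -683 on the low plane (exact permutation p = 0.0257). Among the 26 libraries of higher score the sets no longer overlapped, with 4772 to 5671 in the 12 testes and 5712 to 6136 in the 14 pituitary libraries. The diet-adjusted difference there was -633 (unadjusted permutation p = 1e-05). Among the 11 libraries of low score the ranges were 4197 to 5121 and 4068 to 4585, which overlap. The diet-adjusted difference there had the other sign, 66.9 (exact permutation p = 0.774).

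**Figure D5:**
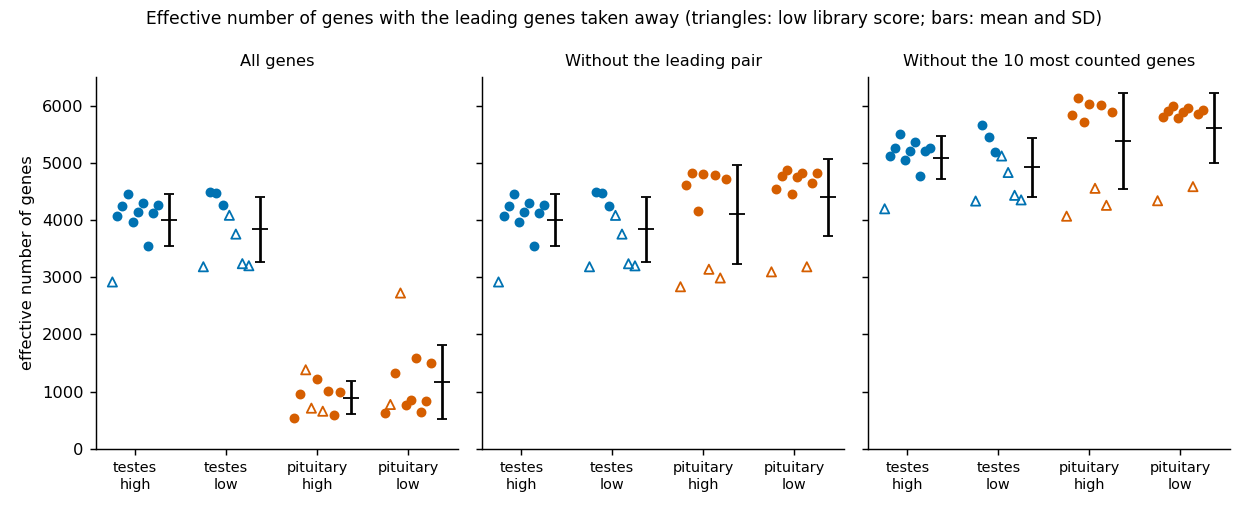
Effective number of genes (y axis, from 0) for each library by tissue and plane of nutrition, with all genes (left), without the leading pair of pituitary genes (middle) and without the 10 most counted genes of each library (right); triangles mark low library score and bars the mean and SD. Pituitary means move from 1036 to 4256 and 5502, whereas testes means move from 3930 to 3929 and 5017.

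More genes were detected in the testes, with or without the leading genes. At a common depth of 6895844 reads, the expected number of genes with at least 1 read was 17726 ± 375 (SD, n = 18) in the testes and 16378 ± 339 (SD, n = 19) in the pituitary. Testes libraries ran from 16750 to 18215 and pituitary libraries from 15513 to 16789, and testes library B42, of low score, was the only one within the pituitary range. The diet-adjusted difference was 1355 genes (adjusted p = 1e-05 by permutation). It was 1339 genes without the 11 libraries of low score and 945 genes without the leading pair, at a common depth of 5194478 reads (adjusted p = 6e-05 by permutation). By CPM without TMM scaling, which favours the testes, the difference narrowed as the level asked of a gene rose. It was 662 genes at 1 CPM or more (unadjusted permutation p = 0.0019) and 442 genes at 10 CPM or more (unadjusted permutation p = 0.126). At 10 CPM the means over all 37 libraries were 9716 ± 762 genes in the testes and 9267 ± 916 in the pituitary. The test was not passed there. In the 26 libraries of higher score the numbers ran from 9819 to 10348 in the testes and from 9421 to 10158 in the pituitary. In the 11 of low score they ran from 8266 to 9726 and from 7265 to 8583.

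Most genes detected reliably were detected in both tissues. A read in every one of the 37 libraries was found for 13572 genes (55.1% of all listed), and 1859 genes had none. In addition, 1963 genes had a read in every testes library but not in every pituitary library, and 420 genes the reverse. These genes were at low levels, with medians of 1.56 CPM in the testes and 2.73 CPM in the pituitary, without TMM scaling. The median gene of either set also had a read in 16 libraries of the other tissue. At least 1 read in some testes library and none in any pituitary library was found for 2020 genes, and the reverse for 349 genes.

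By the strictest rule, a read in every library of one tissue and none in any library of the other, 111 genes were seen in the testes only and 0 in the pituitary only. The absence of reads among 310582161 pituitary reads allows a pituitary level of up to 0.00966 CPM, which covers counting error only. The 111 genes were low in the testes, by CPM without TMM scaling. Their mean levels ran from 0.167 to 9.40 CPM with a median of 0.713, 38 of them reached 1 CPM, and together they held 0.0143% ± 0.0047 (SD, n = 18) of testes reads. The most abundant was at least 973-fold higher in the testes, and the median gene at least 73.8-fold, against the limit set by 3 reads over all pituitary libraries. In the arcuate nucleus, 3 of the 111 genes had no read in any of the 20 libraries, 1 had a read in every library and 107 in some. The median gene had a read in 2 of those libraries.

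These counts moved with the rule and the libraries. Within the high plane alone there were 219 testes-only and 2 pituitary-only genes, and within the low plane alone 207 and 5. Without the 11 libraries of low score there were 190 and 2. With a read asked of at least 50% of libraries there were 434 and 11, and with 5 reads in every library 37 and 0. In each of these settings the testes had more such genes than the pituitary.

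Genes of one tissue had small numbers of reads in the other. The 109 genes at least 64-fold higher in the pituitary held 31.7% of the reads of the median pituitary library and 0.0264% of the median testes library. All 109 had at least 1 read in some testes library, and 42 had a read in every one. Their share of testes reads ran from 0.00553% in library B42 to 0.167% in library B49. The 267 genes at least 64-fold higher in the testes held 3.49% of the reads of the median testes library and 0.0146% of the median pituitary library, from 0.00745% in A57 to 0.0248% in A11. Of these 267 genes, 31 had no read in any pituitary library and 37 had a read in every one.

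The reads of the leading pituitary pair varied widely among testes libraries. ENSBTAG00000015274 had fewer than 10 reads in 5 testes libraries, 34 reads in library B26, and between 531 and 11411 reads in the other 12. In the 10 testes libraries with at least 100 reads of ENSBTAG00000017220, the ratio of the first gene to the second was 0.861 to 2.21, against 0.66 to 2.79 in the 14 pituitary libraries of higher score. In testes libraries A48 and B7, neither of low score, it was 53.1 and 72.9, resting on only 10 and 27 reads of the second gene. In the 5 pituitary libraries of low score it was 2.15 to 69.8. In the 3 testes libraries of low score with at least 100 such reads it was 1.30 to 1.72. In the arcuate nucleus the first gene ran from 2.22 to 643 CPM with a median of 79.5, without TMM scaling. Whether such reads were made in the testes or came from elsewhere was not tested, and they keep a gene from being counted as seen in the pituitary only.

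Dependence of the tissue difference on the plane of nutrition was found for a small share of genes. The interaction of tissue and diet was called for 617 of 15146 genes (4.07%, edgeR FDR below 0.05). The signed log2 difference, testes minus pituitary, was higher on the low plane for 519 of them and lower for 98. For a gene higher in the pituitary, a higher signed value is a smaller gap between the tissues. The libraries of low score were 1 of 10 and 5 of 8 in the testes and 3 of 9 and 2 of 10 in the pituitary, high plane first. Without these 11 libraries, so with fewer libraries in the fit, 266 genes were called, 131 in the first direction and 135 in the second. With the log2 total count as a covariate 70 genes were called. With the library score as a covariate 744 were called, 492 in the first direction and 252 in the second. Leaving out 1 library gave 273 genes without B2 and 2469 genes without B42, both testes libraries of low score. Among the named genes, only ENSBTAG00000014835 was called. High plane calves had a pituitary level of 732 ± 179 CPM (SD, n = 9), against 462 ± 95.9 CPM in low plane calves (SD, n = 10). The testes levels were 7196 ± 1007 (SD, n = 10) and 7594 ± 1608 CPM (SD, n = 8), in the same order. The interaction was 0.74 ± 0.21 (log2, SE, edgeR FDR = 0.0418), and 0.82 without the libraries of low score, where it was no longer called (edgeR FDR = 0.0696). With the log2 total count as a covariate it was 0.81 and not called either (edgeR FDR = 0.119). It was called with the library score as a covariate (0.81, edgeR FDR = 0.0217) and in DESeq2 (0.73, DESeq2 FDR = 0.0147). None of the 6 measures of breadth passed a permutation test of whether its tissue difference depended on diet (adjusted p from 0.496 to 0.702).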

How the data were processed

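The authors deposited 1 file of raw counts per library, the number of reads on each Ensembl gene, without normalization. The submitters' processing notes name CASAVA 1.4, STAR, HTSeq and edgeR; genome build and annotation release are not given in the sources used here. Tissue and diet came from the labels. The 37 libraries were fitted together with edgeR 4.0.16 under R 4.3.3 (filterByExpr on tissue, TMM, quasi-likelihood test, diet and tissue as terms, Benjamini-Hochberg FDR below 0.05). The filter left out 9470 genes. Levels of tested genes are TMM-scaled CPM, and shares are of raw counts. Numbers of genes at 1 and 10 CPM, levels of genes grouped by presence of reads, and arcuate nucleus levels are CPM without TMM scaling. The median TMM factor was 1.12 in the testes and 0.896 in the pituitary. Unscaled CPM therefore stands higher in the testes, relative to the pituitary, than scaled CPM does. Replicates are libraries, and p-values measure the spread between them. No 2 libraries of a tissue agreed within sampling noise (lowest chi-square per degree of freedom 8.7).

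Breadth was computed in Python 3.11.15 with scipy 1.17.1. Depth was equalised by hypergeometric rarefaction. Tissue labels were permuted within diets 100000 times (2000 times where a library was left out). The named genes are, for each tissue, the 2 with the largest mean CPM among those at least 2-fold higher in it. Gene lists drawn up for hormones, germ cells and Leydig cells were not used, because the identifiers were not paired with names. The comparison, rule and lists were chosen with earlier results of these data known. On simulated counts for the tissue comparison over 15146 genes, 66 genes were changed by 1, 67 by 2 and 67 by 3 on the log2 scale. Of these, 71.2%, 100% and 100% were found. The simulation changed few genes, gave all genes the same dispersion and held no set of libraries of low score. These rates therefore may not carry over to the real libraries. Alternatives were DESeq2 1.42.0, limma 3.58.1 with voom, other scalings and filters, and subsets of libraries.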

Additional observations from a re-analysis of the deposited data

Results flagged for a closer look

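In 6 of 40 groups examined (10 measures in each combination of tissue and diet), 1 library lay far from its group. The rule sets about 1 group in 20 apart by chance when values are independent and normally spread. The measures are related, and A47 and B49 were each set apart on more than 1 of them. Whether 6 exceeds chance was therefore not tested. Testes library B42 had the fewest genes at common depth on the high plane, 16750 against 17503 in the next. Pituitary library A47 had the largest effective number on the low plane, 2724 against 1582, and the smallest share in its 10 most counted genes, 14.8% against 26.4%. Testes library B49 had 672 CPM of ENSBTAG00000015274 and 426 CPM of ENSBTAG00000017220, the most of the high plane testes, where the next libraries had 217 and 157 CPM. Pituitary library A51 had 315 CPM of ENSBTAG00000021189 against 173 in the next of the high plane. B42, A47 and A51 are libraries of low score, and B49 is not.

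The tissue difference was called as dependent on diet for 617 genes (edgeR FDR below 0.05). That count was 70 with the log2 total count as a covariate and 266 without the libraries of low score. With 1 library left out it lay between 273 and 2469. For ENSBTAG00000014835 the tissue difference was larger by 0.74 (log2) on the low plane (edgeR FDR = 0.0418). The call was lost with the log2 total count as a covariate (0.81, edgeR FDR = 0.119) and without the libraries of low score (0.82, edgeR FDR = 0.0696). It was kept with the library score as a covariate (0.81, edgeR FDR = 0.0217) and in DESeq2 (0.73, DESeq2 FDR = 0.0147). Over the 37 libraries left out in turn, its value stayed between 0.70 and 0.83 and its FDR between 0.0117 and 0.0775, and the call was lost without any one of 21 libraries (pituitary A1, A51, A29, A39, A27, A52, A14, A46, A4 and A35, and testes A48, B32, B12, B30, B49, B54, B21, B2, B15, B26 and B20).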

How the results depend on the processing

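Over the tissue comparison and the measures of breadth, 117 of 151 settings other than a library left out kept the direction and the side of the threshold, or a count within 1.5 times. All 222 refits of the 4 named genes that gave a value kept direction and FDR below 0.05; the pituitary pair was not tested where CPM of 1 was asked of every library. With that filter, 3115 genes were higher in the testes and 3367 in the pituitary, and 1262 and 1346 were at least 2-fold higher in the testes and the pituitary. Without a filter, 5440 genes were at least 2-fold higher in the testes and 3373 in the pituitary. Tested against a fold of 2 (glmTreat), 2278 and 1903 genes were called. Leaving out each library moved the 2-fold counts to between 2922 and 3010 and between 2595 and 2683. Genes depending on diet numbered 70 with the log2 total count as a covariate, 266 without the libraries of low score and 1081 with DESeq2. They numbered 744 with the library score as a covariate, and 273 to 2469 with a library left out. The count moved by over 1.5 times without pituitary A57 (385), A51 (383), A18 (353), A10 (1620) or A47 (1255). It also did so without testes B42 (2469), B32 (394), B38 (406), B21 (324), B2 (273), B31 (1347), B7 (1144) or B20 (366).

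Genes detected differed by 442 at 10 CPM over all libraries, past no threshold. Without the 10 most counted genes, the differences, testes minus pituitary, were -482 effective genes and -200.1 genes holding 50% of reads (-633 and -259 without the libraries of low score). Without the leading pair, which was picked by level in the pituitary, they were -321 and -177. The shares of the 1, 10 and 100 most counted genes then differed by 0.314, -0.577 and 0.882 percentage points. Without the libraries of low score as well, these values were, in the same order, -444, -230.4, 0.182, -0.425 and 1.27. Genes seen in testes only numbered 219 and 207 by plane, 190 without the libraries of low score, 37 at 5 reads and 434 at 50% of libraries. Those seen in the pituitary only numbered 2, 5, 2, 0 and 11, with 0.812 expected at the lowest total and 0 to 1 with a library left out (1 without B21). The causes of these shifts were not tested, beyond the fewer genes or libraries that a setting keeps.

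No paired analysis was possible because the labels number libraries across all tissues and do not tie them to calves. The setting without mitochondrial genes was not run, because the identifiers have no names here. The depth limits what can be said of genes near 1 read per library.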
